A study of Mus musculus with 4 samples.

Results

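The Caspr family consists of the contactin-associated proteins, single-pass membrane proteins of the neurexin superfamily, encoded in the mouse by the Cntnap genes. The 7 genes described here are Cntnap1, Cntnap2, Cntnap3, Cntnap4, Cntnap5a, Cntnap5b and Cntnap5c, taken by gene symbol from the 31053 genes of a single-nucleus RNA-seq matrix, and each symbol had exactly 1 row. The nuclei came from the superior colliculus, the midbrain centre that receives retinal input, of C57BL/6J mice with no genetic change or treatment in the labels. There was 1 library of pooled tissue at each of 4 stages: embryonic day 19 (E19), and postnatal days 4, 8 and 21 (P4, P8 and P21). The question addressed is where in this tissue each family member is transcribed, and how that differs between cell classes, neuron subtypes and ages.

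Caspr proteins organise the axon around the node of Ranvier and occur at synapses. Caspr, the product of Cntnap1, pairs with contactin (Cntn1) on the axon and binds glial neurofascin, which forms the paranodal junction that seals each myelin loop to the axon. Caspr2, the product of Cntnap2, pairs with Cntn2 next to the paranode, in the juxtaparanode, and holds Kv1 potassium channels there; it is best known outside myelin for its link to epilepsy and autism. Cntnap4 has been tied to transmitter release from interneurons, and Cntnap3 and the Cntnap5 genes are the less studied members.

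The 3 Cntnap5 genes are close paralogs, which bears on whether their transcripts can be counted apart. Over the aligned bases of the longest coding transcripts in GENCODE M21, the 3 pairs of Cntnap5 genes were between 89.8% and 90.3% identical, whereas the other 18 pairs of members were between 59.3% and 70.4% identical. The same 60-base stretch of exon 8 is shown for all 7 members as the stretch, aligned without gaps, in which the Cntnap5 genes are most alike; capitals mark bases that differ from Cntnap5a.
Cntnap5a: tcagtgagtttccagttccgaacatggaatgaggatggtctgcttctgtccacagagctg
Cntnap5b: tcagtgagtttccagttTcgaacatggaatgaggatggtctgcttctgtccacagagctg
Cntnap5c: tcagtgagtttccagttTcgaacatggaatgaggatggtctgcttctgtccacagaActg
Cntnap4: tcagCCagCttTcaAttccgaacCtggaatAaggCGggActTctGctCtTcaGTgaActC
Cntnap2: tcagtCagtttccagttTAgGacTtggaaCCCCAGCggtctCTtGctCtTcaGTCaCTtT
Cntnap3: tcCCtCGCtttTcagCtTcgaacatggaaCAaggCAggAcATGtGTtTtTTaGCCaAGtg
Cntnap1: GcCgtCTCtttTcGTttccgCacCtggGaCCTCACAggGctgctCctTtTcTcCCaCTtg
In build GRCm38 (mm10), the Cntnap5a stretch lies at chr1:116157501-116157560, the Cntnap5b stretch at chr1:100141282-100141341 and the Cntnap5c stretch at chr17:58092321-58092380, all coding and on the plus strand. Within it Cntnap5b differs from Cntnap5a at 1 base and Cntnap5c at 2, while Cntnap4 differs at 18, Cntnap2 at 23, Cntnap3 at 26 and Cntnap1 at 27. Between 168 and 263 runs of 31 bases were shared by the transcripts of each pair of Cntnap5 genes, and 0 by each other pair. Reads in such shared runs could be assigned to the wrong Cntnap5 gene or dropped. Most of each gene's span is intron, and intronic reads were counted here.

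The genes differ greatly in length. Cntnap2 (ENSMUSG00000039419) spans 2244.857 kb at chr6:45059357-47304213, and only 4 genes of the matrix have a longer annotated span. Cntnap5a (ENSMUSG00000070695) spans 902.568 kb at chr1:115684756-116587323, Cntnap5b (ENSMUSG00000067028) 713.178 kb at chr1:99772765-100485942 and Cntnap5c (ENSMUSG00000038048) 640.786 kb at chr17:57769570-58410355. Cntnap4 (ENSMUSG00000031772) spans 312.675 kb at chr8:112570043-112882717 and Cntnap3 (ENSMUSG00000033063) 167.774 kb at chr13:64736182-64903955, on the minus strand. Cntnap1 (ENSMUSG00000017167) is compact, at 20.202 kb, chr11:101170523-101190724, and overlaps Ccr10 and Plekhh3 on the opposite strand, so its counts are uncertain if reads were counted without strand. Gm45904 overlaps Cntnap4 and Rpl7a-ps5 overlaps Cntnap5c, both also on the opposite strand. Because intronic reads count, a longer gene collects more reads, and levels of different members are ranked here only per 100 kb of span.

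The matrix held 9724 nuclei, 2249 to 2585 per library, with a median of 6828 unique molecular identifiers (UMIs, 1 per captured RNA molecule) per nucleus in the E19 library, 9044.5 in that of P4, 9672 in that of P8 and 11745 in that of P21. The deposited annotation placed 7552 of them in 25 neuron subtypes, named EN for excitatory and IN for inhibitory, and 9 of 9715 barcode sequences occurred in more than 1 library. Of 35 marker genes, 30 were highest in the class they mark; Slc1a3 and Gja1 were not highest in astrocytes, and Ttr, Foxj1 and Epcam (22.0, 4.41 and 0 counts per 1000000 UMIs, CPM) were not highest in the nuclei labelled epithelial, whose label therefore goes against its markers. EN7 held at least 20 nuclei only at E19 (33) and P4 (191); leaving it out changed no class call of a member. With 1 library per stage, differences between stages have no test, and their intervals (95%, exact Poisson or binomial) cover counting error only.

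All 7 members were higher in neurons than in astrocytes and than in the oligodendrocyte lineage. Cntnap2, the Kv1-anchoring member, stood at 4149 CPM in neurons of the E19 library, 5069 at P4, 5094 at P8 and 5842 at P21. In astrocytes of the same libraries it stood at 408, 497, 606 and 473 CPM, and in the oligodendrocyte lineage at 326, 603, 709 and 360 CPM. The neuron values did not overlap those of either glial class, and the 2 glial classes overlapped each other. Neurons exceeded astrocytes by a log2 difference of 3.59 ± 0.22 (SE, 4 libraries; adjusted p = 1.05e-05, edgeR quasi-likelihood test with library as a block), and Cntnap2 was higher in neurons in 4 of 4 libraries.

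The difference from astrocytes ranged over the 7 members from 2.84 on the log2 scale for Cntnap3 to 3.99 for Cntnap5c, and that from the oligodendrocyte lineage from 2.57 for Cntnap1 to 5.30 for Cntnap3. Among all genes tested, 22.2% were higher in neurons and 20.2% higher in astrocytes in the first comparison, and 13.5% higher in neurons and 8.2% higher in the oligodendrocyte lineage in the second. Cntnap1 had the least secure call: its adjusted p against the oligodendrocyte lineage was 0.0103 in all 4 libraries, but the call was lost without the P4 (0.056) or the P8 library (0.075). At E19 the oligodendrocyte lineage stood at 25.4 CPM of Cntnap1, above the 18.1 CPM of neurons, on 5 UMIs in 47 nuclei. With library totals in place of the TMM scaling factors, the share of calls that were higher in neurons went from 52.3% to 36.4% against astrocytes and from 62.1% to 50.03% against the oligodendrocyte lineage, and all 7 members were still called higher in neurons in both.

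**Figure D1:**
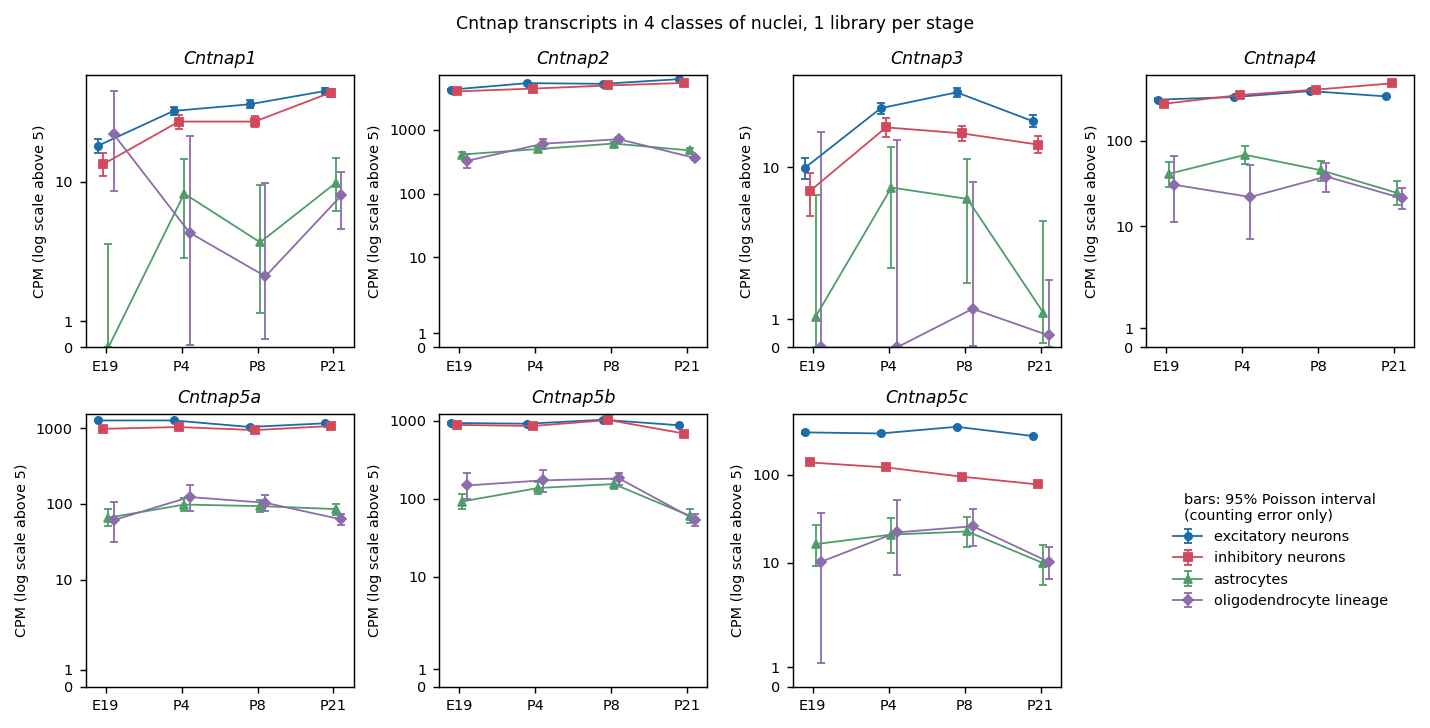
Level of each Cntnap gene (CPM, log scale above 5) in excitatory neurons, inhibitory neurons, astrocytes and the oligodendrocyte lineage at E19, P4, P8 and P21; points are single libraries and bars are 95% Poisson intervals for counting error. The neuron lines lie above both glial lines for Cntnap2, Cntnap4 and the 3 Cntnap5 genes at every stage, Cntnap1 climbs with age in both neuron classes, and Cntnap5c is split between excitatory and inhibitory neurons.

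The glial levels were low but, for most members, not at 0, and RNA of neuronal marker genes was counted there too. Cntnap2 in astrocytes was 8.10% to 11.9% of its neuron level in the same library, beside 9.20% to 14.8% for Syt1, 21.6% to 34.6% for Snap25 and 4.08% to 31.7% for Rbfox3, the 3 neuronal markers taken. In microglia, 13.0% to 19.0% of the neuron level of Cntnap2 was counted, beside 11.4% to 18.9% for Syt1, 29.2% to 38.9% for Snap25 and 3.75% to 17.7% for Rbfox3. At P21, 1 of 33 microglia held 30.9% of the Cntnap2 UMIs of that class. At P8, 1 fibrous astrocyte held 32.9% of the Cntnap2 UMIs of its subtype. Whether free RNA from neurons gave the UMIs counted in these classes was not tested. Cntnap3 was at 0 UMIs in microglia, endothelial cells and dividing cells of every library, each class with 10 to 36 nuclei per library.

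Most nuclei of either neuron class carried several members at once. After thinning every nucleus to 2300 UMIs, an excitatory neuron held UMIs of 3.03 members on average at E19 and 3.35, 3.55 and 3.41 at P4, P8 and P21. Inhibitory neurons held 2.62, 3.03, 3.16 and 3.21 members, and astrocytes 1.02, 1.32, 1.34 and 1.11. Scaling by span treats all reads as if they grew with length, but reads in exons were counted too. Exons cover 5.875 of the 20.202 kb of Cntnap1 and 10.248 of the 2244.857 kb of Cntnap2. The scaled order of a compact and a long gene is therefore not secure. Per 100 kb of span, the neuron level at P21 was 290 CPM per 100 kb for Cntnap1, 260 for Cntnap2, 124 for both Cntnap4 and Cntnap5a, 111 for Cntnap5b, 29.4 for Cntnap5c and 11.6 for Cntnap3. At E19 Cntnap2 was the highest, at 185 CPM per 100 kb, and Cntnap1 stood at 89.7, below Cntnap5a (129), Cntnap5b (129) and Cntnap4 (92.7).

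Excitatory neurons carried more of 5 members than inhibitory neurons did, and Cntnap5c showed the widest gap. In excitatory neurons Cntnap5c stood at 302, 294, 350 and 275 CPM at E19, P4, P8 and P21. In inhibitory neurons it stood at 137, 121, 94.7 and 77.3 CPM. The 2 classes did not overlap, and within a library the excitatory level was between 2.20-fold (interval 2.04 to 2.38, E19) and 3.70-fold (3.45 to 3.96, P8) the inhibitory level. The log2 difference was 1.59 ± 0.13 (SE; adjusted p = 0.00014), and it was called under every alternative run, including each left-out library.

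Cntnap3 was the other member with a call that held in every subset of libraries. Its excitatory levels were 9.89, 29.0, 38.6 and 22.9 CPM and its inhibitory levels 6.54, 20.5, 18.4 and 15.0 CPM. The classes overlap across stages, but the excitatory value was the higher in each of the 4 libraries, by 1.51-fold, 1.41-fold, 2.10-fold and 1.52-fold. The log2 difference was 0.78 ± 0.11 (SE; adjusted p = 0.00214). The class totals mix unlike subtypes: at P8 excitatory EN4 stood at 148 CPM and EN12 at 6.04, beside 106 in inhibitory IN7 and 1.32 in IN8. How far single subtypes set the class difference was not tested.

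Cntnap1, Cntnap2 and Cntnap5a had smaller differences in the same direction. The log2 differences were 0.36 ± 0.084 for Cntnap1 (SE; adjusted p = 0.0217), 0.22 ± 0.063 for Cntnap2 (adjusted p = 0.0486) and 0.28 ± 0.060 for Cntnap5a (adjusted p = 0.0152), and each gene was higher in excitatory neurons in 4 of 4 libraries. For Cntnap1 the ratio at P21 was 1.03-fold, and its interval (0.931 to 1.14) included no difference. The calls of these genes were less secure. That of Cntnap2 was lost without any 1 of the 4 libraries and with library totals as scaling (0.16, adjusted p = 0.113), and those of Cntnap1 and Cntnap5a were lost without the E19, the P4 or the P8 library.

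Cntnap4 and Cntnap5b were not called. Cntnap4 had a log2 difference of -0.067 ± 0.094 (SE; adjusted p = 0.694), and the libraries went different ways: the excitatory level was 1.12-fold the inhibitory level at E19 (interval 1.05 to 1.19) and 0.704-fold at P21 (0.677 to 0.733), with 0.946 and 0.963 between them. Without the P21 library the estimate turned to 0.051. Whether the class difference of Cntnap4 changes with stage could not be tested with 1 library per stage. Cntnap5b had a difference of 0.19 ± 0.068 (SE, adjusted p = 0.096) and was higher in excitatory neurons in 4 of 4 libraries, by between 1.01-fold and 1.28-fold. The lowest of these ratios, at P8, had an interval (0.983 to 1.03) that included no difference.

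The background of this comparison depends on the scaling. Of 15686 genes tested, 9.57% were higher in excitatory and 7.04% higher in inhibitory neurons. Calls higher in excitatory neurons made up 57.6% of all calls with TMM factors and 41.4% with library totals, which moved the median gene from -0.0052 to -0.061 on the log2 scale. With library totals 4 of the 7 members were called higher in excitatory neurons and 0 higher in inhibitory neurons.

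**Figure D2:**
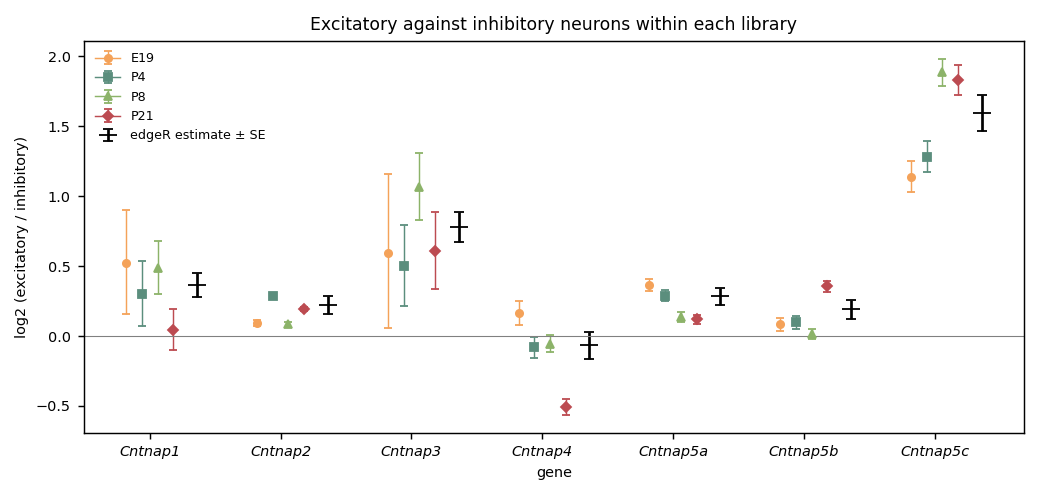
Log2 ratio of the excitatory to the inhibitory level of each Cntnap gene (vertical axis) in the E19, P4, P8 and P21 libraries, with 95% intervals for counting error, and the edgeR estimate ± SE over the 4 libraries in black. Cntnap5c lies above 1 in each library, Cntnap3 lies between 0.5 and 1.1, and Cntnap4 lies above 0 at E19 and at about -0.5 at P21.

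Transcripts of the genes listed as partners of Caspr and Caspr2 leaned the same way, mainly those of the juxtaparanode and paranode. Of 35 partner genes, 18 were called higher in excitatory neurons and 0 higher in inhibitory neurons, with a median log2 difference of 0.19 beside -0.0052 over all genes; with library totals the count was 10. By role, 10 of 12 juxtaparanodal genes, 5 of 6 paranodal genes, 2 of 8 genes of the node and initial segment, 1 of 6 synaptic scaffold genes and 0 of 3 transcription factor genes were called. The largest differences were those of Kcna4 (0.75 ± 0.11 SE, adjusted p = 0.00243) and Kcna1 (0.55 ± 0.093, adjusted p = 0.00561), which encode Kv1 channel subunits, and Kcnab1 (0.73 ± 0.12, adjusted p = 0.00445), a Kv1 auxiliary subunit. Cntn1, the Caspr partner, differed by 0.31 ± 0.053 (adjusted p = 0.00578) and Cntn2, the Caspr2 partner, by 0.27 ± 0.075 (adjusted p = 0.0445). Span alone is shared with many other genes: of 227 genes of at least 500 kb that were tested, 81 were called higher in excitatory and 38 higher in inhibitory neurons, with a median of 0.14.

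The members differed in how they were spread over the 25 neuron subtypes. Subtypes are clusters of these same nuclei, so the levels are a description with no test. The highest mean level over libraries was 2.73-fold the lowest for Cntnap1, 4.00-fold for Cntnap2, 5.83-fold for Cntnap5a, 6.24-fold for Cntnap5b, 7.74-fold for Cntnap4 and 23.4-fold for Cntnap5c. The lowest Cntnap1 value is that of EN7, measured only at E19 and P4; among the 23 subtypes measured in all 4 libraries the ratio for Cntnap1 was 2.47, with IN3 lowest. Cntnap3 spread furthest, 141-fold, with a lowest value that rested on 2 UMIs in all. The order of subtypes was similar between libraries for Cntnap2 (Spearman's rho between pairs of libraries 0.79 to 0.95, median 0.89) and Cntnap5c (0.79 to 0.96, median 0.87), and less so for Cntnap1 (0.25 to 0.71, median 0.52) and Cntnap3 (0.25 to 0.73, median 0.52); the libraries share 1 annotation. For Cntnap1 the highest subtypes by mean, EN13 (54.9 ± 27.7 CPM, SD, n = 4 libraries) and EN3 (47.6 ± 18.4), differed by less than their spread.

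**Figure D3:**
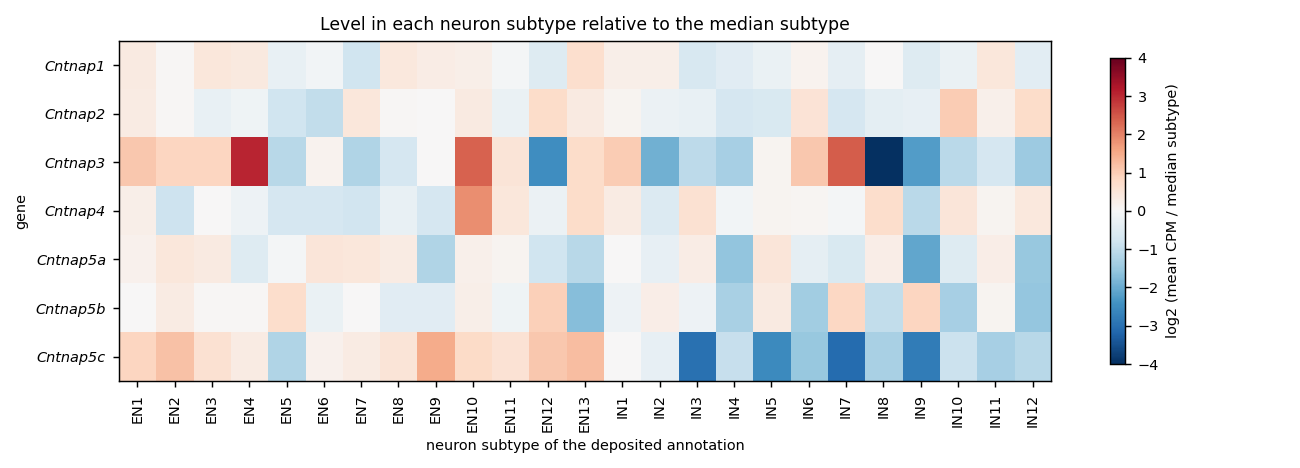
Mean CPM over libraries of each Cntnap gene in each of the 25 neuron subtypes, as the log2 ratio to the median subtype of that gene (red above, blue below; values below -4 are drawn at -4). Cntnap1 varies least, Cntnap2 is highest in IN10 and lowest in EN6, Cntnap3 is high in EN4, IN7 and EN10, Cntnap4 in EN10, and Cntnap5c is high across most EN and low across most IN subtypes.

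Cntnap4 was highest in the excitatory subtype EN10. In EN10 it stood at 1378, 1069, 1332 and 916 CPM at E19, P4, P8 and P21, the highest of all subtypes in 4 of 4 libraries. The next subtypes by mean, EN13 (348 to 624 CPM), IN8 (409 to 713 CPM) and IN3 (281 to 810 CPM), overlapped one another and lay wholly below the 4 EN10 values. Each EN10 value rests on 32 to 60 nuclei, and 80.0% to 97.4% of them held a Cntnap4 UMI. Among inhibitory subtypes the gene was higher in later libraries in IN3 (281, 338, 546 and 810 CPM) and IN10 (246, 298, 526 and 731 CPM), while IN9 was the lowest subtype by mean, at 52.0 to 242 CPM.

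Cntnap3 was scarce in most subtypes and highest in EN4, IN7 and EN10. In EN4 it stood at 35.5, 149, 148 and 65.7 CPM, the highest level in 3 of 4 libraries. IN7 followed with 5.20, 71.5, 106 and 72.6 CPM and EN10 with 34.8, 63.8, 117 and 27.8 CPM. The ranges of these 3 overlap, so their order is not resolved, and at E19 the IN7 value was a single UMI. At P8, 62.8% of EN4 nuclei held a Cntnap3 UMI, beside 1.64% of IN8 nuclei (1 UMI in 61 nuclei).

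The Cntnap2 level differed several-fold between subtypes. IN10 stood highest by mean, at 8893, 7562, 10117 and 12905 CPM, and was the top subtype in 3 of 4 libraries. IN12 (7071 to 9224 CPM) and EN12 (4854, 7885, 6986 and 12394 CPM) came next, and both overlapped IN10. EN6 was lowest, at 1749, 1922, 2736 and 3471 CPM, and all 4 of its values lay below the lowest of IN10. At full depth a Cntnap2 UMI was found in most nuclei of every neuronal and non-neuronal subtype with at least 20 nuclei. Thinned to 2300 UMIs, at P21, it was found in 99.7% of excitatory neurons, 99.3% of inhibitory neurons and 65.9% of astrocytes (100.0%, 100.0% and 89.2% unthinned, at median depths of 19601, 14009.5 and 5525 UMIs). Thinned shares of the other classes are not given here.

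The 3 Cntnap5 paralogs had different leading subtypes. Cntnap5a was highest by mean in EN6 (1259, 1241, 1509 and 1885 CPM), where Cntnap2 was lowest, and IN5 and EN2 overlapped it. Its lowest subtype was IN9, at 156, 275, 239 and 342 CPM. For Cntnap5b the order was nearly the opposite in IN9, which stood second at 2254, 1771, 1777 and 949 CPM, after EN12 at 2615, 1936, 1456 and 1158 CPM and before IN7 at 2652, 1631, 1512 and 869 CPM; these ranges overlap. EN13 was lowest for Cntnap5b, at 222, 400, 348 and 179 CPM.

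Cntnap5c was highest in EN9 at E19, P4 and P8, at 562, 627 and 657 CPM, and not at P21, where EN9 stood at 220 CPM. EN13 and EN2 followed by mean, at 435 ± 155 and 417 ± 82 CPM (SD, n = 4 libraries), within the spread of EN9 (517 ± 202). Its lowest subtypes were IN7 (10.4, 46.2, 20.95 and 10.5 CPM), IN3 and IN9. IN7 and IN9, both among the 3 highest for Cntnap5b by mean, were thus both among the 3 lowest for Cntnap5c.

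**Figure D4:**
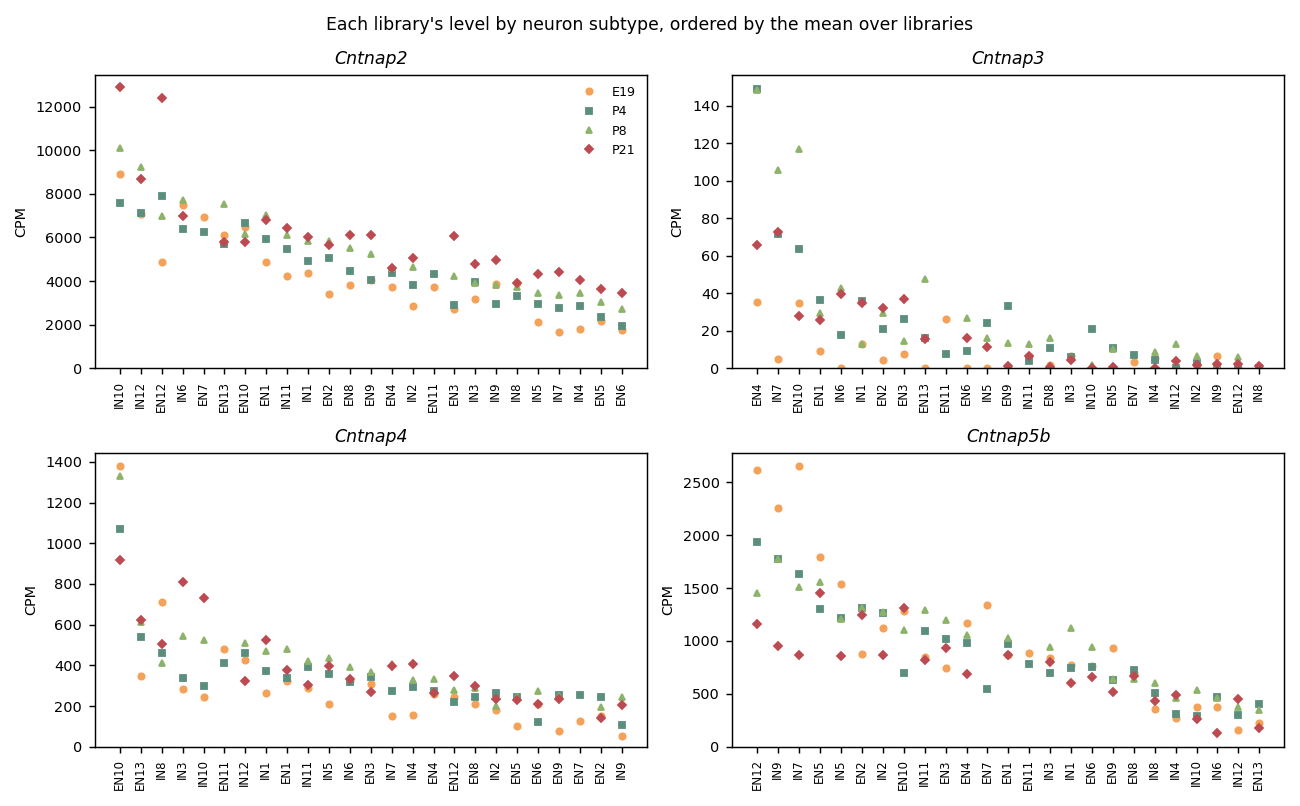
Level (CPM) of Cntnap2, Cntnap3, Cntnap4 and Cntnap5b in each neuron subtype with at least 20 nuclei, 1 symbol per library, with subtypes ordered by their mean over libraries. The 4 EN10 points of Cntnap4 stand clear of all other subtypes, whereas the leading subtypes of the other 3 genes overlap.

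Genes whose subtype pattern was most like each member's were taken over 96 pairs of subtype and library, centred within each library, among 9073 genes of at least 10 CPM. These correlations are a description; the pairs share libraries and nuclei. For Cntnap5c the closest were Ank2 (Pearson r = 0.75), which encodes ankyrin-B of the paranodal cytoskeleton, Gpr149 (0.74) and Epb41l4b (0.73). For Cntnap1 they were Dnah9 (0.69), Plxna4 (0.66), a semaphorin receptor gene, and Ankrd13d (0.65). For Cntnap5a they were Mdga2 (0.68), whose product binds neuroligins, Tanc2 (0.64), a postsynaptic scaffold gene, and Lrp1b (0.63).

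Cntnap5b was closest to Srgap1 (0.61), Ntng1 (0.58), which encodes netrin-G1, and Cachd1 (0.58). Cntnap2 was closest to Fras1 (0.55), Cit (0.53) and Xylt1 (0.53), and Cntnap4 to Ehbp1 (0.50), Ttc39b (0.47) and Katnal2 (0.47). Cntnap3 was left out because its neuron level was 8.75 CPM at E19, under the 10 CPM required in every library. Among the members themselves the highest correlation was that of Cntnap1 with Cntnap5c (0.46), and the lowest were those of Cntnap5b with Cntnap4 (-0.35) and with Cntnap2 (-0.34). The Cntnap5 paralogs were only weakly correlated with one another: 0.22 for Cntnap5a with Cntnap5b, 0.16 for Cntnap5a with Cntnap5c and -0.023 for Cntnap5b with Cntnap5c.

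Between the E19 and P21 libraries, Cntnap1 differed most of the 7 members by fold in both neuron classes. Its level in excitatory neurons was 20.2, 40.1, 45.7 and 59.4 CPM at the 4 stages in order, and in inhibitory neurons 14.1, 32.6, 32.6 and 57.6 CPM. The P21 level was 2.94-fold (interval 2.54 to 3.41) the E19 level in excitatory and 4.09-fold (3.25 to 5.19) in inhibitory neurons. The difference was present in each subtype that could be compared: of 23 neuron subtypes with at least 20 nuclei in both libraries, Cntnap1 was higher at P21 in 23, each by more than 1.5-fold on the log2(CPM + 5) scale, which understates the change of low genes. The log2 ratio ranged from 0.69 in EN8 (34.1 to 58.2 CPM) to 3.77 in IN7 (63.2 CPM at P21), with a median of 1.95; in IN7 the E19 library held 0 UMIs in 30 nuclei, so its ratio is set by the added 5 CPM. Among 9904 genes with 10 CPM in neurons of either library, 1.34% were past 1.5-fold higher in all 23 subtypes, and 5.79% were higher in all of them.

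The share of nuclei with a Cntnap1 UMI is set partly by depth, which differed between the libraries. It was 14.6% of excitatory neurons at E19 (median 8051.5 UMIs per nucleus) and 65.8% at P21 (median 19601 UMIs). Thinned to 2300 UMIs per nucleus, the share was 4.86%, 8.87%, 9.23% and 10.7% at E19, P4, P8 and P21, and in inhibitory neurons 3.36%, 7.18%, 6.43% and 11.9%. In the oligodendrocyte lineage at P21 the thinned share was 2.29% and the level 7.65 CPM (median 7253 UMIs), both below those of neurons in the same library. Of 4 genes for myelin proteins, Mbp, Mag, Mog and Mobp, 3 reached 10 CPM in excitatory neurons at E19 or P21 and all 3 were past 1.5-fold higher at P21; in inhibitory neurons 3 of 4 were. Their summed level in excitatory neurons was 44.6, 69.1, 42.6 and 107 CPM at E19, P4, P8 and P21, and in inhibitory neurons 43.9, 44.6, 49.7 and 112 CPM. Their part in the Cntnap1 difference was not tested.

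**Figure D5:**
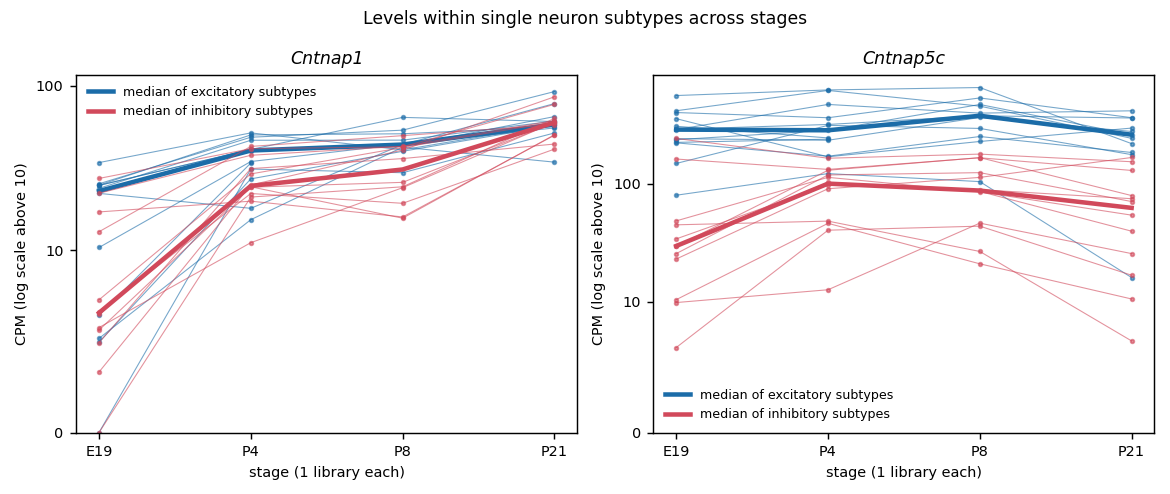
Level of Cntnap1 and Cntnap5c (CPM, log scale above 10) in each neuron subtype with at least 20 nuclei, across the 4 stages; thin lines are subtypes and thick lines the medians of the excitatory (blue) and inhibitory (red) subtypes. Cntnap1 is higher at P21 than at E19 in all 23 subtypes measured in both, whereas Cntnap5c moves in both directions among subtypes from E19 to P21 and is lower in 20 of 23 at P21 than at P8.

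The other members moved less. From E19 to P21, 2 of 7 members were past 1.5-fold higher in excitatory neurons (Cntnap1 and Cntnap3) and 0 lower, beside 12.5% of genes higher and 21.9% lower. In inhibitory neurons 3 were higher (Cntnap1, Cntnap3 and Cntnap4) and 1 lower (Cntnap5c), beside 13.8% and 22.1%. Scaling by median of ratios moved the median gene by 0.11 on the log2 scale in excitatory and 0.10 in inhibitory neurons; with it Cntnap2 in excitatory neurons also passed 1.5-fold (0.68). With 20 CPM added in place of 5, Cntnap3 in excitatory neurons did not pass (0.52).

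Between neighbouring stages, the largest fold of Cntnap1 and of Cntnap3 in both neuron classes was that from E19 to P4. In that interval both genes, and no other member, were past 1.5-fold higher in each neuron class, beside 2.33% of genes higher and 4.02% lower in excitatory and 2.99% and 4.29% in inhibitory neurons. Cntnap1 was 1.99-fold (interval 1.71 to 2.32) its E19 level at P4 in excitatory and 2.31-fold (1.79 to 3.01) in inhibitory neurons. It was higher in 24 of 25 subtypes, with EN10 the exception, and the share of all genes at that count was not computed. Several subtypes rested on few Cntnap1 UMIs at E19, with 0 in EN5 and IN7. Cntnap3 was 2.93-fold (2.38 to 3.64) and 3.13-fold (2.18 to 4.61) its E19 level.

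Between P4 and P8, 0 of 7 members passed 1.5-fold in either class, beside 5.96% of genes in excitatory and 4.13% in inhibitory neurons. Between P8 and P21, Cntnap3 was past 1.5-fold lower in excitatory neurons (0.594-fold, interval 0.516 to 0.684), beside 7.86% of genes higher and 9.9% lower. In inhibitory neurons Cntnap1 was past 1.5-fold higher in that interval (1.77-fold, 1.55 to 2.02), beside 8.73% higher and 10.4% lower.

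Cntnap3 peaked before P21: its neuron level was 8.75, 26.5, 29.4 and 19.5 CPM at the 4 stages in order. Between P8 and P21 it was lower in 18 of 23 subtypes, 10 past 1.5-fold, and the share of all genes at that count was not computed. Several of these rested on few UMIs, with 0 at P21 in IN4 and IN10. It was higher in 5 subtypes, 2 past 1.5-fold: IN1 (13.0 to 34.7 CPM) and EN3 (14.6 to 37.1 CPM). Cntnap4 in inhibitory neurons stood at 269, 341, 393 and 465 CPM, so that the P21 level was 1.73-fold the E19 level (interval 1.64 to 1.83), while in excitatory neurons it was 301, 322, 378 and 328 CPM. Cntnap2 was 1.46-fold (interval 1.44 to 1.48) and 1.36-fold (1.34 to 1.38) its E19 level at P21 in excitatory and inhibitory neurons, short of 1.5-fold, and was higher in 20 of 23 subtypes, 13 of them past 1.5-fold; 18.1% of genes were higher in at least 20 of them.

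Cntnap5b and Cntnap5c were lower late in development in most subtypes. From P8 to P21 Cntnap5b was lower in 19 of 23 subtypes, 8 past 1.5-fold, and Cntnap5c in 20 of 23, 13 past 1.5-fold. Of 9444 genes, 17.5% were lower in at least 20 of the 23, a count that Cntnap5b did not reach. The share of genes was not computed for 19 subtypes or for subtypes past 1.5-fold. For Cntnap5c the lowest ratio was in EN5, from 104 to 16.0 CPM. Cntnap5a was higher in 15 of 23 subtypes, 2 past 1.5-fold, and lower in 8, 1 past 1.5-fold. The share of all genes at that count was not computed either.

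For Cntnap5c in inhibitory neurons, the class total and the subtypes gave different answers over the whole period. The class total was lower at P21 (0.563-fold, interval 0.511 to 0.620; log2 ratio -0.79), but with the subtypes weighted alike the log2 ratio was 0.29. IN1, in which the gene stood at 243 CPM at E19 and 154 CPM at P21, supplied 266 of 893 inhibitory nuclei at E19 and 70 of 740 at P21. IN4 moved in the opposite direction, from 23.0 to 167 CPM.

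Many partners of Caspr2 were also higher at P21. Of 12 juxtaparanodal genes, 6 were past 1.5-fold higher at P21 than at E19 in excitatory neurons and 0 lower, with a median log2 ratio of 0.77 beside -0.078 over all genes and 12.5% of genes higher and 21.9% lower. In inhibitory neurons 9 were higher and 1, Kcna4, lower, beside 13.8% and 22.1%. The myelin genes given beside Cntnap1 were higher in the same neurons. In astrocytes 5 of the 9 juxtaparanodal genes that reached 10 CPM were higher and 0 lower, beside 14.7% of genes higher and 33% lower. In the oligodendrocyte lineage, P21 against P4, 6 of 11 were higher and 2 lower, beside 19.9% and 40%. Kcna1 went from 6.68 to 71.8 CPM and Kcna2 from 14.8 to 69.3 CPM in excitatory neurons. Of 6 paranodal genes 1 was past 1.5-fold higher in either class: Epb41l3, a cytoskeletal adaptor of the Caspr proteins, at 240 and 593 CPM in excitatory neurons. Cntn1 stood at 647 and 729 CPM.

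In astrocytes 5 of 7 members reached 10 CPM at E19 or P21, and 1 of them, Cntnap4, was past 1.5-fold lower at P21 (41.0 to 24.6 CPM, on 38 and 40 UMIs), beside 33% of genes lower and 14.7% higher. Of the 38 UMIs at E19, 7 came from 1 nucleus, a fibrous astrocyte, and the call was not tested without it. In the oligodendrocyte lineage 5 members reached 10 CPM at P4 or P21, and 4 were past 1.5-fold lower at P21, beside 40% of genes lower and 19.9% higher. The largest difference there was that of Cntnap5b, from 172 to 54.0 CPM (0.314-fold, interval 0.218 to 0.463). The class totals compare different cells: oligodendrocyte precursor cells made up 42 of 54 nuclei at P4 and 64 of 306 at P21, when 187 were myelinating oligodendrocytes. Within the precursor cells Cntnap5b stood at 220 CPM at P4 and 200 CPM at P21, and in myelinating oligodendrocytes at 35.7 CPM. In the class totals, only Cntnap5b stayed past 1.5-fold with median-of-ratios scaling, which moved the median gene by 0.46 in this class and by 0.27 in astrocytes.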

How the data were processed

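Nuclei of pooled superior colliculus were profiled with 10x 3′ v3 chemistry, with 1 library per stage. Per the labels, the authors used Cell Ranger 3.0.2 with a reference of unspliced genes made from mm10, and the deposited matrix holds raw UMI counts per gene and nucleus. The deposited table of nuclei also gives a percent of mitochondrial and of ribosomal UMIs, which was not used; 7 of its columns were not used in all. Filters on nuclei, doublet removal, strand use and the annotation release are not given in the sources used here. No nucleus was removed here, and no doublet caller was run. Summed UMIs equalled the deposited totals in all 9724 nuclei, and totals per library ran from 19277512 to 31325079.

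UMIs were summed per library and class or subtype and scaled to counts per 1000000 (CPM). Classes and subtypes are those of the deposited annotation. Classes were compared with edgeR 4.0.16 (R 4.3.3) quasi-likelihood tests with TMM factors and the library as a block, on 8 sums from 4 libraries, with Benjamini-Hochberg adjustment over all genes tested and a threshold of 0.05. The block pairs classes of the same pooled tissue; the libraries differ in stage, so the p-values measure a spread that includes stage. Stages were compared without a test, on log2(CPM + 5) with a call past 1.5-fold for genes of at least 10 CPM; subtypes needed at least 20 nuclei in a library. Alternatives were DESeq2 1.42.0, no block, left-out libraries, other pseudocounts, scalings and weightings. On simulated counts for the excitatory and inhibitory comparison (15332 genes, 200 changed), 100% of genes changed 2-fold were recovered with 6 false calls. The share was 92% against astrocytes (3 false calls) and 83% against the oligodendrocyte lineage (6 false calls). The simulated counts had 1 fixed dispersion, changed only abundant genes and held no class effect that varied with stage. They do not give the power for differences under 2-fold. Spans and sequences came from GENCODE M21, in which 31011 of 31053 gene identifiers were found. The text names the 7 members, the lists of partner genes and the 3 genes most like each member by Pearson's r. The members and lists were chosen with earlier results of these data known. The titles and stage labels give the earliest stage as E19, which was used here; the extraction protocol in the labels writes E10 in brackets after embryonic day 19. A single further gene of the myelin list is not reported here.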

Additional observations from a re-analysis of the deposited data

Results flagged for a closer look

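Cntnap5a moved in opposite directions in the 2 neuron classes between E19 and P21. The log2 ratio of P21 to E19 was -0.12 in excitatory neurons (1262 and 1158 CPM) and 0.12 in inhibitory neurons (979 and 1067 CPM), and both counting intervals excluded no change. With 1 library per stage, the difference between the classes was not tested. With median-of-ratios scaling the values were 0.0070 and 0.24, and with subtypes weighted alike 0.27 and 0.33, so the opposite directions were seen only with CPM scaling of summed or nucleus-weighted counts among the settings run.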

How the results depend on the processing

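Of 2606 genes called between excitatory and inhibitory neurons, DESeq2 called 1659, the fit with no replicate block (library not paired) 183, and fits without 1 library between 1223 and 2338. Without the block the calls of Cntnap1, Cntnap2, Cntnap3 and Cntnap5a were lost and that of Cntnap5c was kept (adjusted p = 0.00348). Fits without 1 library called between 1717 and 4355 genes against the oligodendrocyte lineage (3370 with all) and between 4726 and 6881 against astrocytes (6854 with all). The lost calls of Cntnap1, Cntnap2 and Cntnap5a are named beside their values; without 1 library Cntnap4 ranged from -0.16 to 0.051, the latter without P21. The library totals were added as a scaling after seeing the data. No paired analysis was possible between stages because each stage is 1 library. Members past 1.5-fold from E19 to P21 in excitatory neurons numbered 1 with 20 CPM added (2 with 5). In astrocytes they numbered 0 with 20 CPM added and 2 with median-of-ratios scaling or nuclei weighted alike (1 in the main setting). Between P4 and P21 in the oligodendrocyte lineage they numbered 1 with median-of-ratios scaling and 2 with nuclei weighted alike (4 in the main setting). Cntnap5c in inhibitory neurons went from -0.79 to 0.29 with subtypes weighted alike; the subtype sizes beside that result differ between the libraries. Counts of a few UMIs limit Cntnap1 and Cntnap3 in glia and in single subtypes.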

Other observations

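In oligodendrocyte precursor cells Cntnap5b was at 152, 220, 224 and 200 CPM at E19, P4, P8 and P21 (29, 37, 115 and 60 UMIs), which is 16.6%, 24.6%, 21.9% and 25.4% of its neuron level in the same library. Cntnap5a was there at 5.40% to 11.4% of its neuron level, Cntnap2 at 7.97% to 16.2% and the neuronal marker Syt1 at 12.8% to 17.3%, while the neuronal gene Snap25 was at 49.2% to 84.4%. In committed oligodendrocytes Cntnap5b was at 8.37% of the neuron level at P8 and 2.87% at P21, and in myelinating oligodendrocytes at 4.53%. Microglia (9.01% to 24.0%) and protoplasmic astrocytes (6.97% to 17.9%) overlapped the precursor cells, and dividing cells stood at 13.2% to 15.9%. The microglia level at P21, 189 CPM, rested on 21 UMIs, of which 1 nucleus held 33.3%.

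In fibrous astrocytes Cntnap4 was at 78.7, 173, 49.9 and 17.6 CPM (15, 39, 11 and 4 UMIs), or 27.1%, 52.8% (interval 37.5% to 72.2%), 13.0% and 4.55% of its neuron level. The neuronal markers in fibrous astrocytes stood at 8.28% to 21.8% of the neuron level for Syt1, 20.9% to 30.8% for Snap25 and 3.25% to 33.7% for Rbfox3. At P4 the Cntnap4 UMIs came from 14 nuclei, and 1 nucleus held 28.2% of them. At E19 they came from 8 nuclei, and 1 nucleus held 46.7%.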
